A study of Homo sapiens with 18 samples.

Results

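The comparison described here is the difference between 2 human lymphoma cell lines, OCI-Ly1 and TMD8, in how their RNA changed at 500 nM of JIB-04. It used 12 of the 18 libraries of the series: 3 of OCI-Ly1 with 0.01% DMSO as vehicle, 3 of OCI-Ly1 with 500 nM JIB-04, 3 of TMD8 with 0.01% DMSO and 3 of TMD8 with 500 nM JIB-04. The count tables of the lines were joined on their 23686 shared gene symbols, of which 16604 passed a filter on low counts and were tested. For each gene the change in TMD8 was subtracted from the change in OCI-Ly1, both as log2 fold changes of 500 nM over DMSO, so a positive value means a more positive change in OCI-Ly1. The other 6 libraries, at 150 nM, entered the fit only to estimate the spread.

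Both lines were derived from diffuse large B-cell lymphoma. OCI-Ly1 is classed with the germinal-centre B-cell-like lymphomas and TMD8 with the activated B-cell-like lymphomas, in which signalling from the B-cell receptor to NF-kB is chronically on. JIB-04 is a small molecule that inhibits histone demethylases of the Jumonji (JmjC) class, iron-dependent enzymes that take methyl groups off histone lysines. Among them, the KDM4 enzymes remove methylation of histone H3 lysine 9, the mark of heterochromatin. By its title the series asked whether lymphoma cells depend on keeping heterochromatin intact. The media differed, IMDM for OCI-Ly1 and RPMI 1640 for TMD8, both with serum and antibiotics, so line and medium cannot be told apart. The labels give no treatment time, batch or date. They call the 3 libraries of a group technical replicates, so the p-values measure the spread between these libraries, which may be technical, and not between cultures.

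The OCI-Ly1 libraries held 17579732 to 32651115 estimated counts each and the TMD8 libraries 9550092 to 20509500, with the shallowest 3 libraries in TMD8 at 500 nM. The second OCI-Ly1 DMSO library stood apart: 28 of 10927 genes were at least 3-fold above both other libraries of its group, against 0 to 2 genes in the other 11 libraries. Results that rest on it are given with and without it. By chi-square per degree of freedom between libraries of a group, the first TMD8 DMSO library stood furthest from its group. It had 10.9 against the second and 11.5 against the third, which had 1.94 between them. Without this TMD8 library, 875 genes were called with a difference of at least 1 toward TMD8, in place of 1065. B-cell markers, among them MS4A1, CD79A, CD79B, PAX5 and CD22, summed to 1062 to 1276 counts per 1000000 (CPM) in OCI-Ly1 and 2361 to 3080 in TMD8. T-cell markers summed to 23.6 CPM or less, NK-cell markers to 28.1 or less, myeloid markers to 4.48 or less, and fibroblast markers to 0.856 or less in OCI-Ly1. Epithelial markers summed to 16.3 to 25.3 CPM in OCI-Ly1 and 80.9 to 87.9 in TMD8, where CDH1 held the largest share of them with 65.6 to 70.0 CPM in the DMSO libraries. In TMD8 the fibroblast list went from 4.09 to 4.74 CPM with DMSO to 30.8 to 32.4 at 500 nM, almost wholly through COL1A1, while COL1A2 stayed at 13 counts or fewer in each library, DCN at 6 or fewer and LUM at 1 or fewer. Markers of activated B-cell-like lymphoma summed to 5149 to 5576 CPM in TMD8 with DMSO and 636 to 653 in OCI-Ly1, and markers of the germinal-centre type to 195 to 198 and 750 to 754. The germinal-centre sum in OCI-Ly1 was carried by MME and BCL6, while LMO2 and SERPINA9 of the same list ran the other way, at 0.271 CPM or less in OCI-Ly1 with DMSO and 22.3 or more in TMD8.

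At 500 nM the lines differed in their response at 7699 of the 16604 genes (46.4%, edgeR quasi-likelihood test, Benjamini-Hochberg adjusted p under 0.05). The change was more positive in OCI-Ly1 at 4690 genes (28.2%) and more positive in TMD8 at 3009 (18.1%). Differences of at least 1 on the log2 scale were found at 714 genes in the first direction (4.3%) and 1065 in the second (6.41%). Without the second OCI-Ly1 DMSO library, 4596 and 2806 genes were called, 710 and 997 of them by at least 1. The share of calls in the direction of OCI-Ly1 was 60.9%, and it moved with the scale of the values. It was 57.2% with library totals alone, 64.4% with DESeq2, 89.1% on log2(TPM + 1) and 43.4% on the same values centred on each library's median. The median difference over all tested genes was 0.049 on the TMM scale and 0.38 on log2(TPM + 1), a shift against which every TPM-scale value should be read. On that scale MIR3687 alone took 16.1% to 17.3% of TPM in TMD8 with DMSO and 19.1% to 24.3% at 500 nM. In OCI-Ly1 RPPH1 took the largest share, 6.88% to 7.63% with DMSO and 9.70% to 10.6% at 500 nM. The part of either gene in the shift was not tested. At 150 nM, with the same DMSO libraries, 2484 and 1383 genes were called in the 2 directions.

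**Figure D1:**
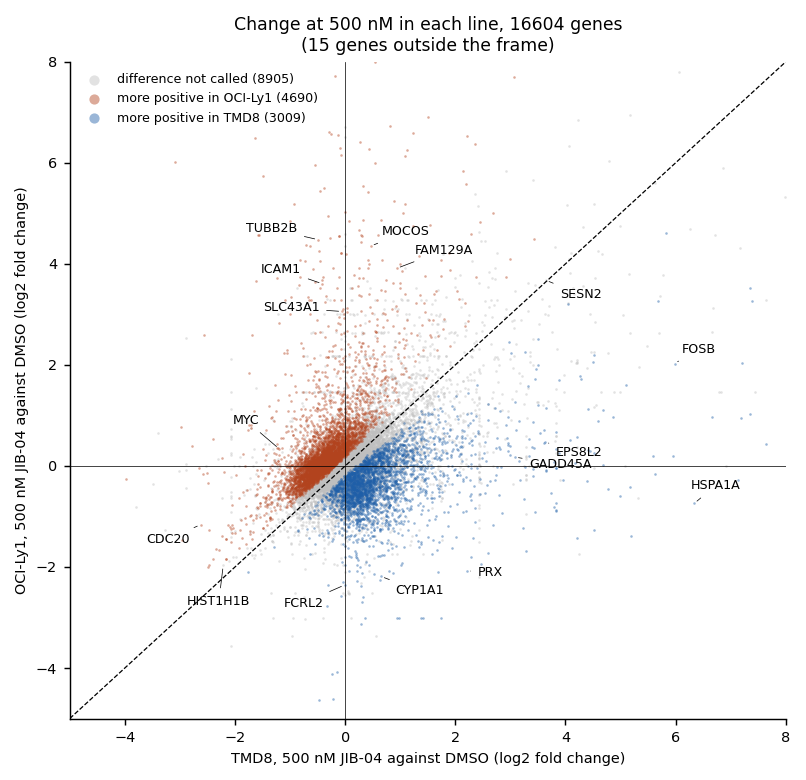
Log2 fold change at 500 nM against DMSO in OCI-Ly1 (vertical) and in TMD8 (horizontal) for 16604 tested genes, with 15 beyond the frame. Red points are the 4690 genes more positive in OCI-Ly1, blue points the 3009 more positive in TMD8 and grey points the rest, and the dashed line marks equal change.

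The responses fell into a small number of classes. Of 5450 genes called in both lines, 4163 moved in the same direction and 1287 in opposite directions. Among the 4163, the size of the change still differed at 1784, most often as a larger fall in TMD8 (912 genes). Another 7112 genes were called in 1 line only, but at 2705 of them the difference between the lines was not called, so those genes are not shown to differ between the lines. A further 221 genes differed between the lines without a call in either. Changes were of like breadth in the lines: the SD over genes was 0.86 in OCI-Ly1 and 0.85 in TMD8. Across the 16604 genes the changes had Pearson's r of 0.349 and Spearman's rho of 0.308, and 60.0% of genes had the same sign, as a description only, since genes are not independent replicates.

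**Figure D2:**
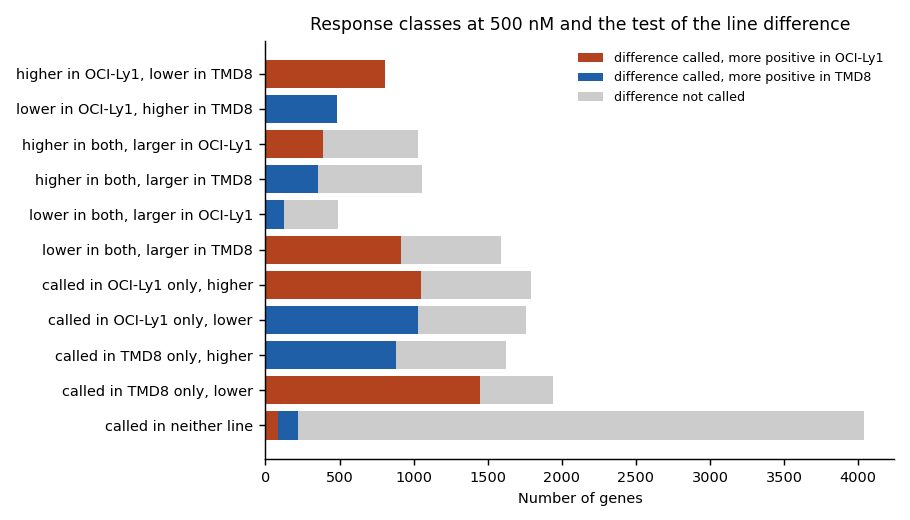
Number of genes (horizontal) in each class of response, by the direction called in each line. Red and blue parts are genes whose line difference was called, 807 for higher in OCI-Ly1 with lower in TMD8 and 480 for the reverse, and grey parts are genes where it was not called.

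The genes that gained most in OCI-Ly1 relative to TMD8 were, in several cases, genes that TMD8 already held at a high level. TUBB2B, a beta-tubulin isotype, stood at 0.345, 0.338 and 0.465 CPM in the 3 OCI-Ly1 DMSO libraries and at 9.79, 9.18 and 7.32 at 500 nM. In TMD8 it stood at 47, 43.6 and 44.1 with DMSO and 30.8, 34.7 and 30.2 at 500 nM. The groups did not overlap in either line, and the difference of 4.97 (SE 0.22, edgeR adjusted p = 2e-15) joined a rise in OCI-Ly1 to a fall in TMD8. Its close relative TUBB2A also differed, by 1.45 (SE 0.10), and reads of these similar genes may have been split between them. Of 13 tubulin genes tested, 7 were more positive in OCI-Ly1 and 3 in TMD8, beside 28.2% and 18.1% of all tested genes.

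BATF3 and ICAM1 showed the same form. BATF3, a basic leucine zipper factor that pairs with JUN proteins, had 0.345, 0.451 and 0.581 CPM in OCI-Ly1 with DMSO and 11.1, 10.9 and 9.76 at 500 nM. TMD8 held 15.8, 12.9 and 11.9 with DMSO and 10.5, 10.2 and 12.9 at 500 nM, where the groups overlapped and no change was called (adjusted p = 0.0676). The difference was 4.79 (SE 0.23, edgeR adjusted p = 1.5e-14), and treated OCI-Ly1 thus reached a level close to that of TMD8. ICAM1, the adhesion ligand of the leukocyte integrin LFA-1 and a textbook NF-kB target, stood at 1.61, 1.18 and 1.47 CPM in OCI-Ly1 with DMSO. It stood at 17.8, 17.6 and 17.7 in OCI-Ly1 at 500 nM, 94.6, 89.9 and 91.7 in TMD8 with DMSO and 67.7, 67.9 and 72.4 in TMD8 at 500 nM. ICAM1 rose in OCI-Ly1 and fell in TMD8, a difference of 4.02 (SE 0.12, edgeR adjusted p = 2.4e-18), yet TMD8 kept the higher level with and without the compound.

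SLC43A1, a transporter of large neutral amino acids, ended above TMD8. It stood at 12.2, 14.9 and 12.3 CPM in OCI-Ly1 with DMSO and 111, 113 and 102 at 500 nM. In TMD8 the libraries overlapped, with 43.6, 41.7 and 42.9 with DMSO and 39.5, 43.1 and 40.9 at 500 nM. The line difference came to 3.11 (SE 0.10, edgeR adjusted p = 2.4e-18). MOCOS, a molybdenum cofactor sulfurase, and FAM129A, a stress-induced protein also called Niban, rose in both lines but more in OCI-Ly1. MOCOS changed by 4.35 in OCI-Ly1 and 0.47 in TMD8, and FAM129A by 3.91 and 0.94. DENND3, an activator of a Rab GTPase, rose by 2.23 in OCI-Ly1 (from 1.27 ± 0.525 to 6.21 ± 0.0821 CPM, mean ± SD, n = 3) and fell by 1.05 in TMD8 (from 142 ± 3.18 to 68.6 ± 0.73). PNMA6C and the septin SEPT3 differed by 3.1 and 3.09 in the same direction. C1orf95 had the largest difference by this rule, 5.14, but also the widest error of the 10 (SE 1.04): its TMD8 DMSO libraries held 102, 198 and 8.81 CPM.

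At 150 nM the same line difference was called, in the same direction, for 8 of these 10 genes, at smaller size in each; SEPT3 and FAM129A were not called. TUBB2B differed by 1.18 at that dose, BATF3 by 1.25, ICAM1 by 1.08 and SLC43A1 by 0.85. The doses share their DMSO libraries, so these values are set side by side only.

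**Figure D3:**
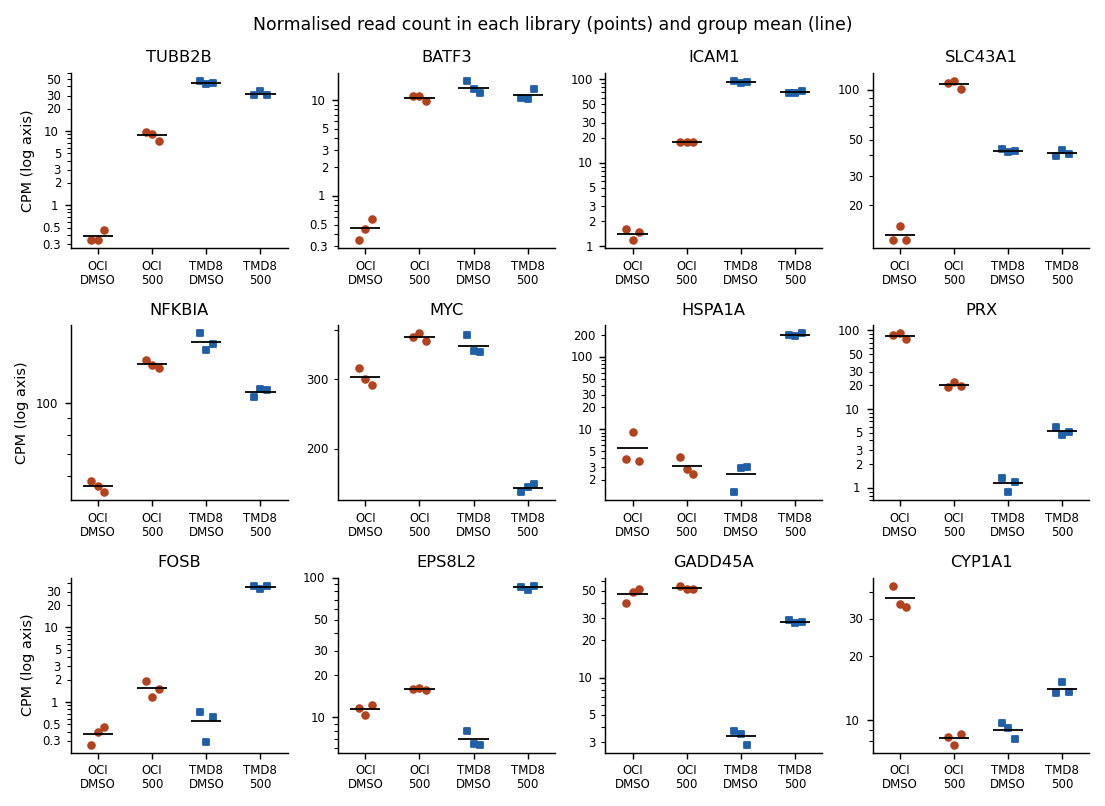
CPM on a log axis of 12 genes in each of the 12 libraries (points, 3 per group) with the group mean (line), red for OCI-Ly1 and blue for TMD8, DMSO and 500 nM JIB-04. ICAM1 and NFKBIA rose in OCI-Ly1 and fell in TMD8, while HSPA1A, FOSB and EPS8L2 rose steeply in TMD8.

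In the other direction, the largest line difference by the same rule was that of HSPA1A, an inducible chaperone gene of the HSP70 family. HSP70 proteins refold damaged proteins, and the heat shock factor HSF1 switches on their inducible genes through heat shock elements, inverted repeats of a short unit in the promoter. HSPA1A had 3.87, 9.18 and 3.68 CPM in OCI-Ly1 with DMSO and 4.12, 2.79 and 2.41 at 500 nM. In TMD8 it went from 1.34, 2.92 and 2.99 to 199.7, 192 and 211. The TMD8 groups stood far apart while those of OCI-Ly1 overlapped. The line difference came to -7.08 (SE 0.43, edgeR adjusted p = 9.1e-13). HSPA1A and HSPA1B encode nearly the same protein from near-identical copies, so reads may have been split between them and their sum is the safer value. Summed, they stood at 123, 134 and 119 CPM in OCI-Ly1 with DMSO and 128, 121 and 114 at 500 nM. In TMD8 the sum was 88.2, 96.8 and 94.5 with DMSO and 821, 794 and 818 at 500 nM, a log2 change of 3.12 against -0.051 in OCI-Ly1. The line difference of the sum, -3.17, was smaller in size than that of HSPA1A alone and than those of PRX and FOSB below. HSPA6, a strictly inducible member, stood at 0.153, 0.169 and 0.0774 CPM in OCI-Ly1 with DMSO, 2, 1.37 and 1.2 in OCI-Ly1 at 500 nM, 1.74, 0.994 and 1.36 in TMD8 with DMSO and 212, 221 and 229.8 in TMD8 at 500 nM. It rose in both lines. The fitted difference of -3.82 (edgeR adjusted p = 0.0287) was -3.66 without the first and -3.66 without the second OCI-Ly1 DMSO library, about as large but no longer called (adjusted p = 0.125 and 0.0861).

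The promoters of these 3 genes are shown because the family is known to be induced through heat shock elements. Each line gives the 250 bases before the start site in RefSeq (GRCh38.p14), 5′ to 3′ on the gene's strand, with matches to the heat shock core in capitals. The letters searched were GAANNTTC and TTCNNGAA, each of which reads the same on both strands, and overlapping matches were merged.
HSPA1A, chr6:31815293-31815542, plus strand: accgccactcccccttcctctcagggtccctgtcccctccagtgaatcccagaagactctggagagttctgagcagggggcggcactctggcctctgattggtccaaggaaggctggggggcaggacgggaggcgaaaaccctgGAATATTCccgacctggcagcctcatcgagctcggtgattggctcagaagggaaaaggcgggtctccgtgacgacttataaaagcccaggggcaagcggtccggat
HSPA1B, chr6:31827488-31827737, plus strand: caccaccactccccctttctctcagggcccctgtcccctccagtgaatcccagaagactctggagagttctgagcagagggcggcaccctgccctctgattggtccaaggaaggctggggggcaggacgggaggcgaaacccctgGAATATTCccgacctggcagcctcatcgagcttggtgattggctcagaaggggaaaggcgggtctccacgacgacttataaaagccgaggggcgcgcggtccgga
HSPA6, chr1:161524290-161524539, plus strand: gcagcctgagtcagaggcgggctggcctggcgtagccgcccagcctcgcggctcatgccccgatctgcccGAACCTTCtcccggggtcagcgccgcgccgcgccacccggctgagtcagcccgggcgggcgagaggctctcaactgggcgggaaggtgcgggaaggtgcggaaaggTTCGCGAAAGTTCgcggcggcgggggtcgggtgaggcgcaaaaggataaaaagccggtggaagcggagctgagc
HSPA1A and HSPA1B each had 1 match and HSPA6 had 3, of which 2 overlap. Of 35116 promoter windows of that length, 11.6% held at least 1 match. A match is a description of the letters and shows no binding.

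The heat shock list as a whole did not share this direction. Of 24 tested members, 13 were more positive in OCI-Ly1 and 6 in TMD8, beside 28.2% and 18.1% of all tested genes. The median difference was 0.23. Most members fell in both lines (16 in OCI-Ly1 and 16 in TMD8, beside 26% and 29.1% of all tested genes). The median fall was deeper in TMD8 (-0.67 against -0.37). DNAJB1, the co-chaperone of HSP70, was on the TMD8 side: it fell by 0.37 in OCI-Ly1 and rose by 0.88 in TMD8. SERPINH1, a collagen chaperone of the endoplasmic reticulum, was on the other side, rising by 3.07 in OCI-Ly1 and 0.29 in TMD8.

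Outside the chaperones, genes that gained in TMD8 relative to OCI-Ly1 were mixed in kind. FOSB, a subunit of the AP-1 factor that is induced within minutes of many stimuli, had 0.268, 0.394 and 0.465 CPM in OCI-Ly1 with DMSO and 1.92, 1.15 and 1.49 at 500 nM. In TMD8 it had 0.738, 0.292 and 0.629 with DMSO and 36.4, 32.7 and 35.9 at 500 nM. The gene rose in both lines, and -3.95 (SE 0.55, edgeR adjusted p = 1.7e-06) measures how much further it rose in TMD8. EPS8L2, a regulator of actin, rose in both lines as well: in OCI-Ly1 from 11.7, 10.4 and 12.3 to 16.1, 16.2 and 15.8 CPM and in TMD8 from 7.98, 6.49 and 6.4 to 86.4, 82.4 and 88.1, a difference of -3.15 (SE 0.17). SYTL2, an effector of Rab27, and HBEGF, a ligand of the epidermal growth factor receptor, fell in OCI-Ly1 by 0.66 and 0.84 and rose in TMD8 by 3.25 and 2.36. FAM166A rose in both lines and the cytochrome P450 gene CYP2W1 was called in TMD8 and not in OCI-Ly1, with differences of -3.89 and -3.08. For FGF23, a phosphate-regulating hormone, and KLF15, a Krüppel-like factor, 1 library decided the value: FGF23 had 2.68, 66.6 and 2.59 CPM in the OCI-Ly1 DMSO libraries. Without the second of them the differences were -0.28 and -1.16 (adjusted p = 0.584 and 0.349) in place of -3.41 and -3.41.

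Opposite responses, called in each line and for the difference, were found at 807 genes that rose in OCI-Ly1 and fell in TMD8 (4.86% of tested genes) and 480 that did the reverse (2.89%). By the size of the smaller of the 2 changes, the first class was led by C1orf95, FHL1, DENND3, ENDOV and CADM4. FHL1, a LIM-domain protein, went in OCI-Ly1 from 0.654 ± 0.19 to 1.57 ± 0.464 CPM (mean ± SD, n = 3) and in TMD8 from 8.74 ± 0.683 to 3.71 ± 1.18. ENDOV, an endonuclease that cuts RNA at inosine, went in OCI-Ly1 from 3.64, 2.7 and 2.25 to 6.15, 6.09 and 6.02 CPM and in TMD8 from 85.9, 92.9 and 87.2 to 44.5, 42.4 and 42.4. It rose by 1.08 in one line and fell by 1.04 in the other, with no overlap between groups. CADM4, a cell adhesion molecule, differed by 2.28 (SE 0.31). Each of these genes had a lower level in OCI-Ly1 than in TMD8 before treatment.

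The reverse class was led by PRX, RPS6KA2, GNG11, NLRP7 and FNDC9. PRX, known as the myelin protein periaxin, stood at 88.2, 91.6 and 77.4 CPM in OCI-Ly1 with DMSO and 19.3, 22 and 19.8 at 500 nM, against 1.34, 0.877 and 1.21 with DMSO and 5.95, 4.69 and 5.1 at 500 nM in TMD8. It fell in OCI-Ly1 and rose in TMD8, a difference of -4.29 (SE 0.24, edgeR adjusted p = 1.2e-13). RPS6KA2, a ribosomal S6 kinase downstream of ERK, crossed over: 20.6, 22.8 and 19.3 CPM became 6.32, 6.95 and 7.26 in OCI-Ly1 while 8.65, 11.1 and 8.7 became 23.5, 22.9 and 26.2 in TMD8. The line with the higher level before treatment had the lower level after it. NLRP7, an NLR-family protein, went in OCI-Ly1 from 139.8 ± 3.28 to 66.1 ± 3.64 CPM and in TMD8 from 5.48 ± 0.25 to 11.4 ± 0.825. GNG11, a G-protein gamma subunit, and FNDC9 differed by -2.39 and -2.68.

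Some of the most abundant genes with a called difference were near the counting floor in 1 line, and for these the levels are given without a fold change. HLA-DRA, the alpha chain of the class II molecule HLA-DR, had 0.23, 0.225 and 0.116 CPM in OCI-Ly1 with DMSO, 1.12, 0.743 and 1.49 at 500 nM, and means of 516 and 585 in TMD8. ANKRD33B, ZMIZ1 and PREX1 were the same in form, with OCI-Ly1 means of 0.247, 0.0901 and 0.101 CPM with DMSO and 1.97, 0.632 and 0.319 at 500 nM, beside TMD8 means of 417, 501 and 314. These OCI-Ly1 levels stayed far below those in TMD8. In the reverse case IL7R, the interleukin receptor of early lymphocytes, was at 0 in all 3 TMD8 DMSO libraries and at 0.338, 0 and 0.104 CPM at 500 nM, against a mean of 350.1 in OCI-Ly1. GPR15 and CREB3L2 were likewise abundant in TMD8 (means of 127 and 138 CPM with DMSO) and had group means of 0.823 and 0.359 CPM in OCI-Ly1 with DMSO.

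RNA of one line in the other's libraries was looked for at genes near 0 in one of them. The 27 genes with at least 100 CPM in TMD8 and at most 0.2 CPM in OCI-Ly1 with DMSO summed to 1.04 to 1.24 CPM in OCI-Ly1 with DMSO and 4.64 to 6.53 at 500 nM, that is 0.0812% to 0.114% of their TMD8 sum. Their median gene stood at 0.0423 CPM at 500 nM and 18 of 27 stayed under 0.1. In the reverse direction, 6 genes chosen by the same limits summed to 0.409 to 0.734 CPM in TMD8 with DMSO and 1.04 to 2.23 at 500 nM, that is 0.0635% to 0.136% of their OCI-Ly1 sum, with a median gene at 0.190 CPM. The part of such RNA in the near-floor results was not tested.

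Among the stress programmes, the integrated stress response rose in both lines and on balance further in OCI-Ly1. In this pathway kinases that sense stress phosphorylate the initiation factor eIF2, and the factor ATF4 is then translated and switches on genes of amino-acid supply and recovery. Of 22 tested members, 21 rose in OCI-Ly1 and 21 in TMD8, beside 28.2% and 25.2% of all tested genes that rose. The median changes were 2.54 and 1.41. The difference was called at 11 members toward OCI-Ly1 and 6 toward TMD8, beside 28.2% and 18.1% of all tested genes. Its median was 0.33 against 0.049 for all genes. VEGFA, the vascular growth factor, went in OCI-Ly1 from 4.49, 6.48 and 7.67 to 49.4, 48.5 and 40.4 CPM and in TMD8 from 38.8, 38.7 and 41.4 to 67.5, 64.9 and 68.8. EIF4EBP1, a repressor of cap-dependent translation, went in OCI-Ly1 from 33.8 ± 2.51 to 140.2 ± 7.32 CPM (mean ± SD, n = 3) and in TMD8 from 21.8 ± 0.883 to 25.9 ± 1.28. PPP1R15A, the phosphatase subunit that reverses eIF2 phosphorylation, rose by 3.22 in OCI-Ly1 and 1.42 in TMD8. For each of these genes the rise was larger in OCI-Ly1 (differences of 2.14, 1.81 and 1.8).

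The genes that supply and charge amino acids leaned the same way. Of 25 genes of amino-acid synthesis and transport, 23 rose in OCI-Ly1 and 17 in TMD8, beside 28.2% and 25.2% of all tested genes. Toward OCI-Ly1 15 of them differed and toward TMD8 2, beside 28.2% and 18.1% of all tested genes. PSAT1, an enzyme of serine synthesis, went in OCI-Ly1 from 68.2, 72.8 and 71.3 to 407, 384 and 371 CPM and in TMD8 from 73.8, 70.9 and 70.3 to 139, 144 and 139. The lines thus began at one level and separated (difference 1.48, SE 0.079, edgeR adjusted p = 5.8e-14). SLC1A5, the glutamine transporter, rose by 1.7 and 0.25. ALDH1L2, a mitochondrial folate enzyme, was an exception, with rises of 1.08 in OCI-Ly1 and 2.81 in TMD8. Of the 20 cytosolic tRNA synthetases, which charge tRNAs with amino acids, 17 differed toward OCI-Ly1 and 0 toward TMD8 (median 0.60). They rose at 11 members in OCI-Ly1 and fell at 11 in TMD8. Of all tested genes 28.2% rose in OCI-Ly1 and 29.1% fell in TMD8. CARS stood at 53.9, 54.8 and 50.2 CPM in OCI-Ly1 with DMSO and 140.1, 134 and 134 at 500 nM, while in TMD8 the groups overlapped at 273, 246 and 249 with DMSO and 264, 258 and 260.1 at 500 nM. TARS and WARS differed by 1.33 and 1.26, and IARS by 0.78.

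The unfolded protein response of the endoplasmic reticulum was divided. Toward OCI-Ly1 lay 10 of 26 members and toward TMD8 13, beside 28.2% and 18.1% of all tested genes. The median difference of -0.31 on the TMM scale turned to 0.17 on log2(TPM + 1). ERN1, the sensor kinase IRE1, and XBP1, the factor whose mRNA it splices, rose in both lines and more in OCI-Ly1 (differences 1.04 and 1.03). SEL1L, an adaptor of protein degradation at that membrane, differed by 1.15. SEC24D, a coat protein of export vesicles, rose by 0.92 in TMD8 and was not called in OCI-Ly1. Metal-response genes rose in both lines, 7 of 9 in OCI-Ly1 and 7 in TMD8, beside 28.2% and 25.2% of all tested genes. The zinc exporter SLC30A1 rose further in OCI-Ly1 (difference 1.37). The metallothionein MT2A had a difference of -0.84 (adjusted p = 0.0333) that was no longer called on leaving out any of 6 libraries or under DESeq2 (-0.83, adjusted p = 0.0595). In 5 of the 6 cases it stayed at -0.72 to -0.80, and without the first OCI-Ly1 DMSO library it was -0.45 (adjusted p = 0.378). Ferritin subunits FTH1 and FTL, which store iron, differed by 0.99 and 0.83, with FTH1 up in OCI-Ly1 by 0.82 and FTL down in TMD8 by 0.67.

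Genes induced by p53 leaned the other way. Of 26 tested members, 20 rose in OCI-Ly1 and 25 in TMD8, beside 28.2% and 25.2% of all tested genes. The difference was called toward TMD8 at 14 and toward OCI-Ly1 at 2, beside 18.1% and 28.2% of all tested genes. Its median was -0.54 on the TMM scale and 0.031 on log2(TPM + 1), where all genes had shifted by 0.38. GADD45A, a growth-arrest protein, stood at 40.1, 49.2 and 51.9 CPM in OCI-Ly1 with DMSO and 55.2, 52 and 52.1 at 500 nM, against 3.69, 3.51 and 2.88 with DMSO and 29.1, 27.7 and 27.9 at 500 nM in TMD8. It rose in TMD8 from a far lower start and was not called in OCI-Ly1 (adjusted p = 0.0817). TP53INP1 rose in both lines, by 1.27 and 3.08, and TP53I3 fell by 0.66 in OCI-Ly1 and rose by 1.11 in TMD8. CDKN1A, the cell-cycle inhibitor p21, was 1 of the 2 exceptions: it went in OCI-Ly1 from 16.4 ± 0.772 to 136 ± 2.28 CPM and in TMD8 from 81.4 ± 4.64 to 222 ± 5.37 (difference 1.6). The BCL2 family decides over apoptosis. Of 14 members, 6 differed toward OCI-Ly1 and 5 toward TMD8, beside 28.2% and 18.1% of all tested genes. The death promoter HRK rose by 0.89 in OCI-Ly1 and 3.16 in TMD8. BCL2 itself, the survival factor, stood at 542, 553 and 555 with DMSO and 541, 569 and 552 at 500 nM in OCI-Ly1 (CPM) and at 229.8, 235 and 231 with DMSO and 454, 473 and 457 at 500 nM in TMD8. Thus BCL2 rose by 0.99 in TMD8 toward the level of OCI-Ly1, where it was not called (adjusted p = 0.86).

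Genes of cell division fell in both lines and deeper in TMD8. Of the 40 mitosis genes, 34 fell in OCI-Ly1 and 40 in TMD8, beside 26% and 29.1% of all tested genes that fell. The difference was called at 39, each with the more negative change in TMD8, beside 28.2% of all tested genes called in that direction. The medians were -0.52 and -1.35. PLK1, the kinase that drives entry into and passage through mitosis, stood at 95.9, 106 and 93.8 CPM in OCI-Ly1 with DMSO and 33.6, 37.1 and 36.2 at 500 nM. In TMD8 it stood at 221, 191 and 194 with DMSO and 27, 25.4 and 24.9 at 500 nM. TMD8 began with more PLK1 RNA and ended with less (difference 1.5, SE 0.13, edgeR adjusted p = 4.6e-10). CDC20 and UBE2C, parts of the machinery that degrades cyclins and securin, differed by 1.46 and 1.33, and CENPA, the centromeric histone, by 1.28.

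DNA replication genes parted more mildly: 25 of 41 differed toward OCI-Ly1 and 2 toward TMD8, beside 28.2% and 18.1% of all tested genes. In TMD8 26 of them fell, against 9 in OCI-Ly1, where 13 rose. The OCI-Ly1 counts were close to the shares of all tested genes, of which 26% fell and 28.2% rose there, while 29.1% fell in TMD8. MCM10 and GINS2, which help build the replicative helicase, rose by 0.28 and 0.18 in OCI-Ly1 and fell by 0.61 and 0.60 in TMD8. MCM5 and RFC5 fell in TMD8 by 0.69 and 0.69. EXO1, a nuclease of mismatch and break repair, rose in OCI-Ly1 by 0.87 and fell in TMD8 by 0.20. BRCA1 and FANCE, also repair genes, differed by 0.66 and 0.81. The 44 replication-dependent histone genes tested, made in S phase, fell at 43 members in each line, beside 26% and 29.1% of all tested genes. Their summed mean level in OCI-Ly1 was 24488 CPM with DMSO and 9226 at 500 nM, and in TMD8 12438 and 3691, log2 changes of -1.41 and -1.75. Their transcripts are alike in sequence, so single members are uncertain. HIST1H3J and HIST1H3B fell deeper in TMD8, with differences of 0.97 and 0.88. Among the G1 regulators CDK4 and CDK6 differed by 0.85 and 0.70, with CDK4 falling by 0.80 in TMD8 and not called in OCI-Ly1.

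MYC, a transcription factor that drives cell growth, went in opposite directions. It had 321, 300.1 and 289.7 CPM in OCI-Ly1 with DMSO and 384, 392 and 375 at 500 nM. In TMD8 it had 388, 354 and 351 with DMSO and 155, 159.6 and 163 at 500 nM. The groups did not overlap in either line. The line difference came to 1.53 (SE 0.081, edgeR adjusted p = 5.8e-14). Its partner MAX also rose in OCI-Ly1 (0.34) and fell in TMD8 (-0.26). The antagonist MXD4 rose by 1.01 in TMD8 and was not called in OCI-Ly1. Ribosome biogenesis genes, long known as MYC targets, fell at 36 of 36 members in TMD8 and 30 in OCI-Ly1. Of all tested genes 29.1% fell in TMD8 and 26% in OCI-Ly1. At 32 members the lines differed, all with the more negative change in TMD8 (median difference 0.55). RRP12 rose by 0.20 in OCI-Ly1 and fell by 0.68 in TMD8. RRS1, RRP1B and DKC1 differed by 0.87, 0.82 and 0.78. The structural ribosomal proteins did not follow: of 58, 2 differed toward OCI-Ly1 and 19 toward TMD8, beside 28.2% and 18.1% of all tested genes. Their median of -0.12 turned to 0.36 on log2(TPM + 1), where RPL3 and RPS16 (-0.73 and -0.65 on the TMM scale) were no longer called. Respiratory chain genes fell at 26 of 36 members in OCI-Ly1 and 34 in TMD8, and proteasome genes at 33 and 34 of 34. The difference was toward OCI-Ly1 at 18 and 17 members and toward TMD8 at 2 and 0, again beside 28.2% and 18.1%. SDHB of the respiratory chain and PSMD8 of the proteasome differed by 0.78 and 0.53.

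**Figure D4:**
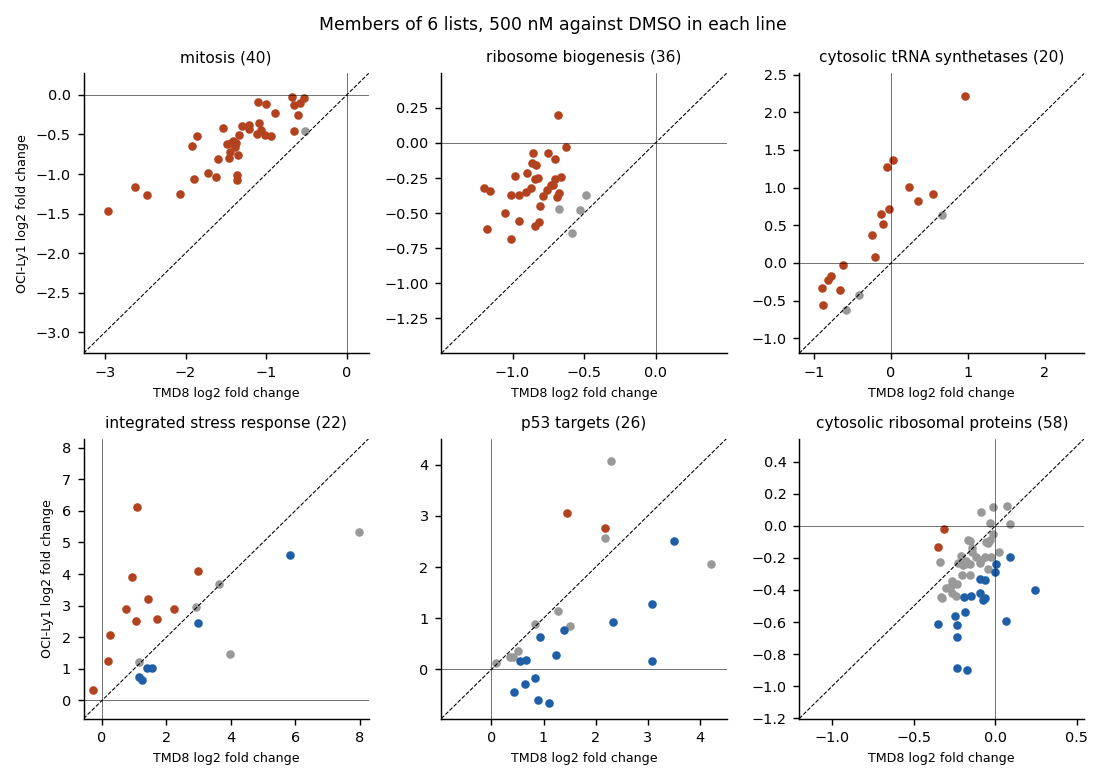
Log2 fold change in OCI-Ly1 (vertical) and TMD8 (horizontal) of the tested members of 6 lists, with the line of equal change dashed. Red points had a called difference toward OCI-Ly1, blue toward TMD8 and grey none, so the 39 called mitosis genes lie above the line and the 14 called p53 targets on the TMD8 side lie below it.

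Among lipid genes the master factor SREBF1 and the elongase ELOVL6 rose in OCI-Ly1 by 0.66 and 0.34 and fell in TMD8 by 1.07 and 1.49. The sterol enzyme LSS rose by 1.37 in TMD8 and was not called in OCI-Ly1, a difference of -1.42. The list was split, with 7 of 32 members toward OCI-Ly1 and 12 toward TMD8. Of 29 hypoxia and glycolysis genes, 12 and 7 differed in the 2 directions. Both lists stand beside 28.2% of all tested genes toward OCI-Ly1 and 18.1% toward TMD8. The aldolase ALDOC and the glucose transporter SLC2A3 fell in OCI-Ly1 (-0.79 and -0.51) and rose in TMD8 (1.19 and 1.05). CYP1A1, the classic target of the aryl hydrocarbon receptor, had 43, 35.3 and 34.2 CPM in OCI-Ly1 with DMSO and 8.36, 7.69 and 8.65 at 500 nM, against 9.73, 9.18 and 8.18 with DMSO and 13.5, 15.2 and 13.6 at 500 nM in TMD8. It fell in OCI-Ly1 and rose in TMD8 (difference -2.84, SE 0.15, edgeR adjusted p = 5.8e-14). The receptor gene AHR moved against it, with 0.22 in OCI-Ly1 and -1.43 in TMD8, and CYP1A2 differed by -0.72. The partner ARNT, the repressor AHRR and TIPARP were not called for the difference (-0.15, 0.024 and -0.21).

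Genes of NF-kB signalling were more positive in OCI-Ly1 at 12 of 31 members and in TMD8 at 6 (median 0.27), beside 28.2% and 18.1% of all tested genes, so the count toward TMD8 was at the background. NF-kB factors are held in the cytoplasm by inhibitors such as NFKBIA (IkB-alpha), whose own gene they induce in a feedback loop. NFKBIA stood at 57.9, 55.7 and 53.4 CPM in OCI-Ly1 with DMSO and 136, 131 and 129 at 500 nM, against 164, 146 and 152 with DMSO and 105, 111 and 110.3 at 500 nM in TMD8. The order of the lines reversed with treatment (difference 1.74, SE 0.083, edgeR adjusted p = 7.1e-15). The chemokine receptor CCR7 rose in both lines and more in OCI-Ly1 (2.88 against 1.12). The cytokine LTB rose by 2.05 in TMD8 and was not called in OCI-Ly1. CD274, the checkpoint ligand PD-L1, rose in OCI-Ly1 from 0.23, 0.563 and 0.387 to 2.17, 2.56 and 2.35 CPM, while TMD8 held 92.6, 89.3 and 87.2 with DMSO and 88.2, 88.5 and 90.2 at 500 nM without a call. The treated OCI-Ly1 level stayed far below that of TMD8 (difference 2.64, SE 0.23).

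The promoters of ICAM1 and NFKBIA are shown because both genes rose in OCI-Ly1 and fell in TMD8 and both are textbook NF-kB targets. The windows are the 250 bases before the RefSeq start (GRCh38.p14), with matches to a kappa-B-like core in capitals. The letters searched were GGNNNTTCC and, for the other strand, GGAANNNCC.
ICAM1, chr19:10270870-10271119, plus strand: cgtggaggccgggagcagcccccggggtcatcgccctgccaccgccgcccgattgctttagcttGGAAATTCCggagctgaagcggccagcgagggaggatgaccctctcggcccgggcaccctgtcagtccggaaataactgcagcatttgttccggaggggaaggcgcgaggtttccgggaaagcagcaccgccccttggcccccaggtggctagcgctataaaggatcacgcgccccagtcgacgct
NFKBIA, chr14:35404750-35404999, minus strand: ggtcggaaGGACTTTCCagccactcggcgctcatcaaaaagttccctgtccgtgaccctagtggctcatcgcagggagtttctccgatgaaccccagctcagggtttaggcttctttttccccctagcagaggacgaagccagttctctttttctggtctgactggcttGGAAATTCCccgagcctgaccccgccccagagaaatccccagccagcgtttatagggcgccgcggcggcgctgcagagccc
ICAM1 had 1 match and NFKBIA had 2, and 17.1% of the 35116 windows held at least 1. The 2 windows share the match ggaaattcc. These data hold no measurement of binding.

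Genes of B-cell identity parted gene by gene. Of 25 B-cell transcription factors 10 differed toward OCI-Ly1 and 8 toward TMD8, beside 28.2% and 18.1% of all tested genes. IRF4, which drives plasma-cell fate and is a hallmark of the activated B-cell-like type, stood at 236, 220.5 and 208 CPM in OCI-Ly1 with DMSO and 437, 428 and 406 at 500 nM. In TMD8 it stood at 3066, 2768 and 2758 with DMSO and 1784, 1780.1 and 1763 at 500 nM. BATF, the AP-1-family partner of IRF4, also rose in OCI-Ly1 (0.95) and fell in TMD8 (-0.92). Both genes were higher in TMD8, so the lines drew closer, and the differences were 1.62 and 1.87. ID3, an inhibitor of E-proteins, fell by 0.72 in OCI-Ly1 and rose by 0.53 in TMD8.

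In JAK-STAT signalling 12 of 23 genes differed toward OCI-Ly1 and 2 toward TMD8 (median 0.45), beside 28.2% and 18.1% of all tested genes. JAK3 and JAK2, kinases of cytokine receptors, rose in OCI-Ly1 by 1.31 and 0.61 and were not called in TMD8. BCL3, a nuclear partner of NF-kB, rose by 1.003 in OCI-Ly1 and fell by 0.76 in TMD8. In the B-cell receptor list 8 and 7 of 23 differed in the 2 directions, 34.8% and 30.4%, the first near the share of all tested genes. The phosphatase PTPN6, the kinase PIK3CD and the protease MALT1 differed by 1.36, 0.77 and 0.67, while the receptor chain CD79B differed by -0.60, a call lost on log2(TPM + 1). Among sphingosine phosphate genes S1PR1, a receptor for exit from tissue, rose by 1.47 in OCI-Ly1 and fell by 0.66 in TMD8, and the kinase SPHK1 fell by 2.2 in TMD8.

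On the TMM scale more surface antigens and class II genes differed toward TMD8 than toward OCI-Ly1. Of 24 B-cell surface antigens, 16 fell in OCI-Ly1 and 6 in TMD8, beside 26% and 29.1% of all tested genes, so the TMD8 count was near the background. Of the same 24, 10 differed toward TMD8 against 4 toward OCI-Ly1, beside 18.1% and 28.2% of all tested genes. Their median difference was -0.23 on the TMM scale and 0.15 on log2(TPM + 1). CD52, the target of alemtuzumab, fell from 170.3, 167 and 183 to 58, 61.1 and 62.8 CPM in OCI-Ly1 and stood at 0.939, 0.877 and 0.944 with DMSO and 1.28, 1.61 and 1.56 at 500 nM in TMD8. CD37, a tetraspanin, fell by 0.74 in OCI-Ly1 and rose by 0.39 in TMD8. FCRL2, an inhibitory Fc receptor-like protein, stood at 33.4, 33.6 and 33.3 CPM in OCI-Ly1 with DMSO and 6.18, 6.43 and 6.97 at 500 nM, against 146, 132 and 135 with DMSO and 143, 139.6 and 127 at 500 nM in TMD8. FCRL2 thus fell in OCI-Ly1 with no call in TMD8 (difference -2.35, SE 0.098, edgeR adjusted p = 7.7e-16). FCRL3 and FCRL1 differed by -1.07 and -0.65, FCRL5 and FCRLB were not called, and FCRLA (-0.30) took the opposite sign on log2(TPM + 1). FCRL4 was near the floor in OCI-Ly1, with 0.115, 0 and 0 CPM with DMSO and 0.143, 0.297 and 0.158 at 500 nM.

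Of 17 MHC class II genes, 11 rose in TMD8 and 4 in OCI-Ly1, beside 25.2% and 28.2% of all tested genes. The difference was toward TMD8 at 6 and toward OCI-Ly1 at 3, beside 18.1% and 28.2%. Its median of -0.27 turned to 0.011 on log2(TPM + 1). CIITA, the master activator of this class, rose in both lines, by 0.28 in OCI-Ly1 and 1.06 in TMD8. HLA-DMA and HLA-DMB, which load peptides onto class II molecules, fell in OCI-Ly1 (-1.25 and -0.70) and rose in TMD8 (0.63 and 0.45). HLA-DMA stood at 9.74, 9.97 and 8.63 CPM in OCI-Ly1 with DMSO, 3.46, 4.31 and 4.18 at 500 nM, 36, 29.8 and 30.2 in TMD8 with DMSO and 47.6, 48.8 and 52 at 500 nM. Interferon-stimulated genes had no common side: 11 of 40 differed toward OCI-Ly1 and 10 toward TMD8, beside 28.2% and 18.1% of all tested genes. At 27.5%, the count toward OCI-Ly1 was at the background. IRF7 rose further in OCI-Ly1 (difference 1.1), and the RNA sensors OAS1 and OAS3 differed by -1.02 and -1.32. Immediate-early factors rose widely, at 16 of 24 in OCI-Ly1 and 20 in TMD8, beside 28.2% and 25.2% of all tested genes. JUN rose further in OCI-Ly1 and NR4A1 further in TMD8 (differences 2.44 and -2.3), beside FOSB above.

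Among the enzymes at which the compound is aimed, none of KDM4A, KDM4B and KDM4C was called for a line difference. KDM4A stood at 79.7, 80.5 and 75 CPM in OCI-Ly1 with DMSO and 112, 105 and 101 at 500 nM, and at 68.6, 65 and 68.7 with DMSO and 86.1, 84.1 and 88.3 at 500 nM in TMD8. It rose in both lines, and the difference of 0.087 had an interval of -0.087 to 0.26 (95%, edgeR adjusted p = 0.42). KDM4B and KDM4C had differences of -0.17 and -0.055, with intervals of -0.39 to 0.048 and -0.23 to 0.12. The 3 intervals all included 0. Of 11 H3K9 demethylases tested, 4 differed toward OCI-Ly1 and 1 toward TMD8, beside 28.2% and 18.1% of all tested genes. KDM4D, PHF2 and PHF8 differed by 1.55, 0.48 and 0.44, and JHDM1D by -0.52, a sign that turned on log2(TPM + 1). Among other JmjC genes the H3K27 demethylase KDM6B rose by 1.81 in OCI-Ly1 and 1.01 in TMD8, and the H3K4 demethylase KDM5B by 1.5 and 0.32. MINA, a ribosomal oxygenase, rose by 0.17 in OCI-Ly1 and fell by 0.98 in TMD8.

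The list for H3K9 methylation and heterochromatin holds writers and readers of the mark, DNA methyltransferases, chromatin assembly factors and proteins of the nuclear rim. In TMD8 19 of its 27 members fell and in OCI-Ly1 13, beside 29.1% and 26% of all tested genes. The difference was toward OCI-Ly1 at 17 and toward TMD8 at 2 (median 0.29), beside 28.2% and 18.1% of all tested genes. SUV39H1, a writer of the trimethyl mark, stood at 32.6, 31.8 and 28.3 CPM in OCI-Ly1 with DMSO and 28.2, 26.4 and 29.2 at 500 nM, against 46.7, 42.8 and 46.8 with DMSO and 24.1, 25.1 and 25.1 at 500 nM in TMD8. It fell in TMD8 and was not called in OCI-Ly1 (difference 0.74, SE 0.11, edgeR adjusted p = 6e-06). LMNB1, the lamin of the nuclear rim to which heterochromatin is tethered, fell in both lines and deeper in TMD8 (-0.33 against -0.89). The DNA methyltransferase DNMT3A rose by 0.86 in OCI-Ly1 and was not called in TMD8, a difference of 0.89. In the Polycomb list 10 of 28 differed toward OCI-Ly1 and 6 toward TMD8, 35.7% and 21.4%, near the shares of all tested genes. PHF19 fell by 1.46 in TMD8 and BMI1 rose by 1.02 in OCI-Ly1. HEXIM1, the inhibitor of the elongation factor P-TEFb, rose by 1.14 in TMD8 and was not called in OCI-Ly1 (difference -0.93).

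**Figure D5:**
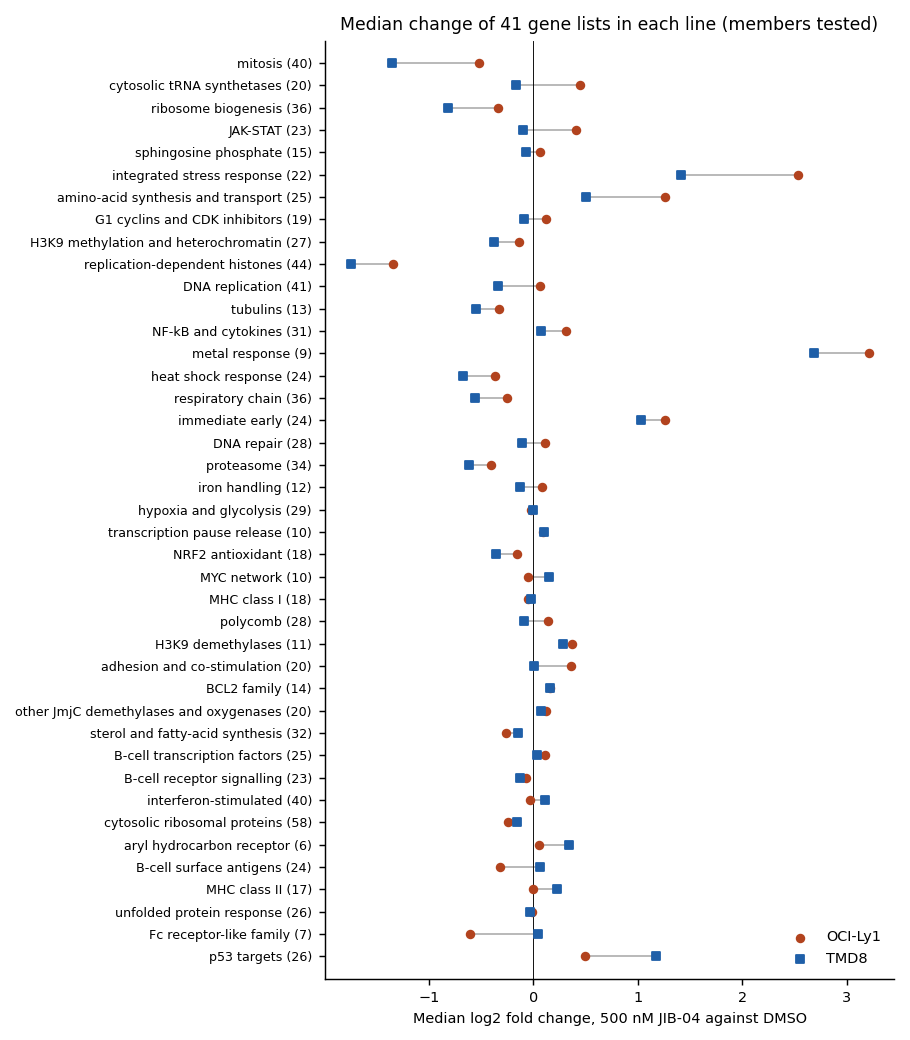
Median log2 fold change at 500 nM against DMSO (horizontal) of 41 gene lists in OCI-Ly1 (red circles) and TMD8 (blue squares), ordered by median line difference, with the number of tested members in brackets. Mitosis stands at -0.52 and -1.35 at the top and p53 targets at 0.49 and 1.17 at the bottom.

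Likeness was measured by the interval of the difference. At 1937 genes (11.7%) both lines were called in the same direction and the 95% interval of the difference lay within 0.5 either way, 730 of them rising and 1207 falling. The largest shared rises were in SESN2, a stress-induced inhibitor of mTORC1, and DDIT3, the stress factor CHOP. SESN2 went in OCI-Ly1 from 16.7, 15.4 and 14.4 to 211, 202 and 183 CPM and in TMD8 from 2.41, 3.16 and 2.94 to 38.9, 34.7 and 32.9. The changes of 3.68 and 3.64 differed by 0.036, with an interval of -0.34 to 0.41. DDIT3 changed by 2.95 and 2.91, an interval of -0.34 to 0.43 for the difference. SLC7A5P1, a pseudogene that may share reads with SLC7A5, and LAMA5, a laminin chain, followed with 2.06 and 1.9 and with 1.75 and 1.68. At 150 nM SESN2 and DDIT3 had been called toward TMD8, with differences of -1.86 and -1.63, so their likeness held at the higher dose and not at the lower. The 4 largest shared falls were histone genes. HIST1H1B, a linker histone, went in OCI-Ly1 from 2471, 2455 and 2225 to 582, 643 and 603 CPM and in TMD8 from 1077, 959.9 and 939 to 221, 206 and 215. HIST1H2BB, HIST1H3H and HIST1H3F fell by 1.88, 1.81 and 1.8 in OCI-Ly1 and by 2.11, 1.99 and 2.03 in TMD8. Of the lists, likeness was most frequent among proteasome genes (24 of 34), respiratory chain genes (20 of 36) and H3K9 demethylases (6 of 11), beside 11.7% of all tested genes. The rule bounds the size of the difference and does not exclude a called one, so alike genes and genes called for the difference overlap. Among the 34 proteasome genes, 24 were alike by this rule while 17 differed toward OCI-Ly1.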

How the data were processed

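Total RNA of the cell lines was depleted of ribosomal RNA and sequenced with paired ends on a HiSeq, per the labels' protocols. The authors deposited a table of estimated counts and a table of TPM per line. The submitters' processing notes name kallisto 0.46.0, R 4.3.1, DESeq2 1.40.2 and the build hg19, with no roles; the transcript index is not given in the sources used here. The deposited estimated counts (38.4% of values not whole) were rounded. The deposited TPM values served only as alternative scales.

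The tables were joined by symbol, and all 18 libraries were fitted with 1 term per group by edgeR 4.0.16 (R 4.3.3; quasi-likelihood test, TMM, low counts removed by filterByExpr on the groups). The difference of differences and the changes within lines came from that fit, with Benjamini-Hochberg adjustment over 16604 genes, a threshold of 0.05, and SE taken as the absolute value over the square root of F. CPM are TMM-normalised. Alternatives used DESeq2 1.42.0, limma 3.58.1 on log2(TPM + 1) and log2(TPM + 0.1), other filters, thinning and left-out libraries. In the 4 groups no 2 libraries were identical (chi-square per degree of freedom 1.65 to 11.5). The fit was tested on simulated data with a single spread for all genes and equal levels in the lines. Differences were planted in well-counted genes only, so that test does not cover genes near the floor.

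The comparison, the 41 gene lists and the rules were chosen with earlier results of these data known. All 1014 list entries were matched, 78 by an older symbol. Named by rule were the 10 largest differences each way (called, over 3 counts in all 12 libraries, at least 5 CPM in a group), the 5 strongest opposite changes each way, the 4 largest alike rises and falls, and 4 called genes each way that failed the count condition. At most 4 called members of a list were named, and each member of lists of at most 8. KDM4A, KDM4B and KDM4C were always named. Some genes that the rules name are not reported here. Promoters came from RefSeq (GRCh38.p14), as no coordinates stand in the tables.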

Additional observations from a re-analysis of the deposited data

Results flagged for a closer look

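The test of the difference between the lines was passed by 4690 genes toward OCI-Ly1 and 3009 toward TMD8, and the genes below are those of them with the largest differences or the clearest opposite changes (edgeR, adjusted p under 0.05, 3 libraries a group). Toward OCI-Ly1 the log2 differences were 5.14 for C1orf95, 4.97 for TUBB2B, 4.79 for BATF3, 4.02 for ICAM1, 3.89 for MOCOS, 3.28 for DENND3, 3.11 for SLC43A1, 3.10 for PNMA6C, 3.09 for SEPT3 and 2.97 for FAM129A. Toward TMD8 they were -7.08 for HSPA1A, -4.29 for PRX, -3.95 for FOSB, -3.91 for SYTL2, -3.89 for FAM166A, -3.41 for FGF23, -3.41 for KLF15, -3.19 for HBEGF, -3.15 for EPS8L2 and -3.08 for CYP2W1. Genes called in opposite directions in the lines added 2.53 for FHL1, 2.12 for ENDOV and 2.28 for CADM4, and -2.96 for RPS6KA2, -2.39 for GNG11, -2.14 for NLRP7 and -2.68 for FNDC9. In C1orf95 the 3 TMD8 DMSO libraries held 102, 198 and 8.81 CPM, and FGF23 and KLF15 lost their call without the second OCI-Ly1 DMSO library. HSPA1A may share reads with HSPA1B, and the sum of both differed by -3.17.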

How the results depend on the processing

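Of 192 named genes called for the difference, 177 kept their direction and side of the threshold under each of the count-based alternatives run and 156 under each alternative run, TPM scales included. The counts below are given in the order more positive in OCI-Ly1, more positive in TMD8, and the same 2 with a difference of at least 1, then higher in OCI-Ly1 with lower in TMD8, the reverse, and alike in both. On log2(TPM + 1) they were 9104, 1112, 1559, 107, 2264, 71 and 826, and on log2(TPM + 0.1) 8824, 949, 2541, 397, 2214, 75 and 444. After centring log2(TPM + 1) on each library's median, 5670 genes were more positive in TMD8, differences of at least 1 numbered 251 and 449, and 1770 genes were lower in OCI-Ly1 with higher in TMD8. A minimum of 10 counts in every library left 351 and 680 differences of at least 1, with fewer genes tested. The median difference over all genes was 0.383 on log2(TPM + 1), 0.498 on log2(TPM + 0.1), -0.0701 centred, 0.0687 with DESeq2, 0.0136 with library totals alone, 0.0182 without a low-count filter and 0.0379 after thinning to the smallest total. On the uncentred TPM scales the sign turned for JHDM1D (0.079 on log2(TPM + 1)), BLVRB (0.025 on log2(TPM + 1) and 0.026 on log2(TPM + 0.1)) and FCRLA (0.19 on both). Of 41 lists, 34 kept the sign of their median on the TMM, library total, DESeq2 and centred scales and 25 on all 6 scales. The cause of these shifts was not tested.

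Leaving out each of 12 libraries in turn gave 4296 to 4596, 2564 to 2869, 682 to 727, 875 to 1113, 682 to 780, 371 to 458 and 1645 to 1935 genes in the same order, and a median of 0.0365 to 0.0582. Among named genes, single libraries ended the call of FGF23, KLF15, IL7R, HSPA6, CREB3L2, MT2A, SLC39A10, MTF1, TFRC, P4HA2 and SGPP2. Without the third OCI-Ly1 DMSO library P4HA2 had -0.78 in place of -1.38, and without the first FCRL4 had 5.64 in place of 2.65. Same-numbered libraries of a line did not deviate together (correlations of -0.045 to 0.025), so the numbers do not pair them. A fit with the replicate block gave 4817, 3071, 715, 1081, 875, 517 and 2055 genes, and no named call changed. Thinned to the smallest total, 9 named genes were no longer called: PREX1, HSPA6, CREB3L2, FCRL4, NR4A2, CCR6, MT2A, MTF1 and TFRC. Before thinning, PREX1, HSPA6, CREB3L2 and FCRL4 had 3 counts or fewer in at least 1 of the 12 libraries. The others had more than 3 in each. HSPA6 kept a difference of -4.08 (adjusted p = 0.061).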

Other observations

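Further lists are set beside the 28.2% of all tested genes that differed toward OCI-Ly1 and the 18.1% toward TMD8. Among 18 antioxidant genes of the NRF2 pathway, 6 differed toward OCI-Ly1 and 2 toward TMD8, with 0.48 for the pentose phosphate enzyme PGD, 0.41 for thioredoxin TXN, -0.50 for the glutathione-synthesis enzyme GCLC and -0.46 for BLVRB, whose sign turned on the TPM scales. Of 18 MHC class I genes, 6 differed toward OCI-Ly1 and 2 toward TMD8. The proteasome activator PSME2 differed by 0.66 and the transporter TAP2 by 0.53, while the peptide trimmer ERAP2 differed by -0.67. Of 20 adhesion and co-stimulation genes, 7 differed toward OCI-Ly1 and 3 toward TMD8. The integrin ITGA4 fell by 0.96 in TMD8, and the co-stimulator TNFSF9 rose in both lines and further in TMD8 (-0.86). Of 28 DNA repair genes 13 and 2 differed in those directions, of 19 G1 regulators 9 and 4, of 15 sphingosine phosphate genes 7 and 3, of 10 pause-release genes 4 and 2, of 12 iron genes 4 and 0, and of 10 MYC-network genes 4 and 3. Toward OCI-Ly1 the NRF2, MHC class I, adhesion and iron lists held 33.3% to 35%, near the share of all tested genes.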
